A study of Mus musculus with 10 samples.

Results

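The 9 genes Gbp2b, Gbp2, Gbp3, Gbp4, Gbp5, Gbp6, Gbp7, Gbp8 and Gbp9 encode guanylate-binding proteins, and they were followed in the spleens of arthritic mice with and without the phosphatase DUSP6. They were found by gene symbol among the 54532 genes of the expression table. The family was chosen on measured values of the comparison reported here, since Gbp2b and Gbp2 had stood out between DUSP6 KO and WT in earlier results of these data. Differences between DUSP6 KO and WT in these 9 genes are therefore given as a description, with a standard error and with no test.

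Guanylate-binding proteins are large GTPases that cells make in response to interferons, above all interferon gamma. They bind and hydrolyse GTP, assemble into coats on the vacuoles and surfaces of intracellular pathogens, and help to bring inflammasome components to them. Mouse genes of the family lie in one cluster on chromosome 3 and another on chromosome 5.

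Spleens were taken from 5 DUSP6 KO mice (allele Dusp6tm1Jmol, called DUSP6 Knockdown in the labels) and 5 WT mice (C57BL/6J), each giving 1 RNA library. All 10 mice had KRN serum-induced arthritis (KSIA). They received 100 µL of pooled serum from arthritic KRN x NOD F1 offspring intraperitoneally on day 0 and again on day 2, and spleens were collected on day 9. Mice were 8 to 12 weeks old, and both sexes were treated, without the labels saying which spleen came from which sex. Both lines were bought from the Jackson Laboratories and no littermate design is described, so the Dusp6 allele and the mouse line it came in cannot be told apart. There were no mice without serum. Values are FPKM, fragments per kilobase of gene scaled to the fragments mapped in the library, and replicates carry the animal numbers of the labels.

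Whole libraries were of similar depth, DUSP6 KO totals running from 14990474 to 19822673 reads against 15611652 to 18422147 for WT (two-sided exact permutation test, p = 0.6032). Dusp6 itself lay between 0.308 and 0.624 FPKM in the DUSP6 KO libraries and between 16.6 and 24.0 FPKM in WT, so each library matched its label. DUSP6 KO replicate 21 stood apart from the other 4 DUSP6 KO libraries for Gbp2b, and values are given with and without this replicate. WT replicate 67 carried exocrine pancreas transcripts, with a summed level of 6118 FPKM over 4 markers, against 92.8 FPKM in WT replicate 65 and 9.52 to 26.2 FPKM in the other 8 libraries. Among splenic cell types, the 5 neutrophil markers summed to 382 to 1353 FPKM in the KO spleens and 827 to 3426 FPKM in WT, and 4 of the 5, each lower in DUSP6 KO, had an unadjusted p under 0.05. The 3 marginal zone macrophage markers summed to 106 to 178 FPKM in DUSP6 KO against 79.7 to 104 FPKM in WT, with 2 of the 3 higher at an unadjusted p under 0.05. The 3 spleen stroma markers summed to 29.3 to 51.8 FPKM against 23.9 to 29.0 FPKM, and 2 of the 3 were higher at that threshold. All 3 monocyte markers passed it, Cx3cr1 higher and Ccr2 and Ly6c2 lower in DUSP6 KO, as did 1 of 4 red pulp macrophage markers, Adgre1, which was higher. None of the markers in these 5 lists had an adjusted p of 0.05 or less. The B cell, T cell, NK and cytotoxic cell, dendritic cell, endothelium, exocrine pancreas and erythroid lists had no marker at the unadjusted threshold. Over all genes tested, 5.66% were at that threshold. No marker of any of the 12 cell type lists was at 0 in all libraries, and the part of these cell types in the differences below was not tested.

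Of the 5 chromosome 3 genes, Gbp5, Gbp7, Gbp3, Gbp2b and Gbp2 follow each other in this order on the forward strand, between positions 142493978 and 142638008 of GRCm38. Gbp2b (ENSMUSG00000040264) occupies chr3:142594847-142619179 and Gbp2 (ENSMUSG00000028270) begins just behind it, at chr3:142620602-142638008. The 4 remaining members, Gbp8, Gbp9, Gbp4 and Gbp6, lie on the reverse strand of chromosome 5, between 105014150 and 105293698.

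Gbp2b and Gbp2 were the closest relatives of each other in coding sequence, with 1458 of 1767 aligned bases identical (82.5%). Their transcripts nevertheless shared few stretches that a short read could not place, with 51 of 2774 windows of 50 bases in Gbp2b (1.84%) also found in Gbp2 and in no other gene. The same 51 windows were 2.07% of the 2467 windows of Gbp2. Gbp6 was the opposite case, since 90.2% of its windows also occurred in the overlapping gene Gm43302 and 62.3% in Gbp10, so its count is uncertain. Gbp8, Gbp9 and Gbp4 overlap one another on the same strand, and the count of each is uncertain for that reason. Gbp7 shared 12.8% of its windows with other genes, 10.6% with Gm43802, and the effect of this on its count was not tested.

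Start sites are shown for the neighbours Gbp2b and Gbp2, which differed most in level between the groups, and for Gbp5 and Gbp7 of the same cluster, whose windows hold both motifs searched. Each sequence holds 250 bases before and 50 bases after the start site in RefSeq, 5′ to 3′ on the forward strand of GRCm38.p6. Capitals mark matches to either of a pair of motifs bound by interferon-activated factors, the gamma-activated site TTCNNNGAA and the paired half-site GAAANNGAA of the interferon-stimulated response element, searched on both strands.
Gbp2b promoter, chr3:142594597-142594896, plus strand: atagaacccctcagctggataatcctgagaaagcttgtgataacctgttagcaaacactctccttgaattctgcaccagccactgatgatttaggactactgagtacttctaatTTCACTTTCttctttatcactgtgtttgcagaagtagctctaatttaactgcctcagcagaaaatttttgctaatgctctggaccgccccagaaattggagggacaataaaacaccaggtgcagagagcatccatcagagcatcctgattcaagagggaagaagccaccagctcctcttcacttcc
Gbp2 promoter, chr3:142620413-142620712, plus strand: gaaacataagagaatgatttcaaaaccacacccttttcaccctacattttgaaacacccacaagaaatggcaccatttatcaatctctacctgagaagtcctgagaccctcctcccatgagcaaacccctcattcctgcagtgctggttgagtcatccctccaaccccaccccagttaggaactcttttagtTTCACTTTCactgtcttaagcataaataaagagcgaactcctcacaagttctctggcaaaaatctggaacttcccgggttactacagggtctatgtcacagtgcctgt
Gbp5 promoter, chr3:142496684-142496983, plus strand: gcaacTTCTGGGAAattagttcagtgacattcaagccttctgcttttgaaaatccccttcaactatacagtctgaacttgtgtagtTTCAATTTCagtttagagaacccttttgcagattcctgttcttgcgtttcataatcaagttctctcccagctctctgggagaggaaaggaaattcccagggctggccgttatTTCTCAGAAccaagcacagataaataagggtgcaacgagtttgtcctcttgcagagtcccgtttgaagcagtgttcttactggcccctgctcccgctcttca
Gbp7 promoter, chr3:142530086-142530385, plus strand: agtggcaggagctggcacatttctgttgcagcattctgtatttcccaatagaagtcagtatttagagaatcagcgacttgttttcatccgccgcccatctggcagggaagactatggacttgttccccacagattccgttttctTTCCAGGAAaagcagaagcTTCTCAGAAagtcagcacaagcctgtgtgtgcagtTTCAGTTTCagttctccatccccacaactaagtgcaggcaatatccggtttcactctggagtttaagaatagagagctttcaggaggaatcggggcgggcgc

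Gbp2b and Gbp2 each held 1 match to the response element half-sites, with the same letters TTCACTTTC, which began 136 bases before the start site in Gbp2b and 58 bases before it in Gbp2. Neither window held a match to the gamma-activated site. Gbp5 and Gbp7 each held 2 matches to the gamma-activated site and 1 to the half-sites, and none of the matches overlapped a match of the other motif. Over all 32851 RefSeq promoter windows of this length, 8.30% held a gamma-activated site, 8.56% the half-sites and 1.07% both. Over their whole length the Gbp2b and Gbp2 windows had 142 of 267 aligned bases identical (53.2%) in an alignment with gaps. Unrelated windows were not aligned beside them, so whether this share exceeds that of unrelated sequence was not tested. Gbp3 had a window with 2 half-site matches and a second window with none.

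Gbp2b, the gene of the protein formerly called mouse GBP1, differed most between mice. Its level in DUSP6 KO replicates 26, 21, 73, 01 and 03 was 6.06, 0.292, 3.84, 9.07 and 10.2 FPKM, which rested on 319, 16, 159, 555 and 480 reads. Its level in WT replicates 65, 67, 73, 77 and 83 was 0.145, 0.353, 0.472, 0.128 and 0.494 FPKM, from 7, 19, 23, 6 and 25 reads. The groups overlapped through DUSP6 KO replicate 21 alone, which lay inside the WT range, while the other 4 KO spleens exceeded all WT values. The mean was 5.90 ± 4.02 FPKM for DUSP6 KO against 0.318 ± 0.175 FPKM for WT (SD, n = 5 each). The log2 difference of FPKM + 0.1 was 3.34 (SE 0.80). Without replicate 21 the DUSP6 KO mean was 7.31 ± 2.91 FPKM (SD, n = 4) and the log2 difference rose to 4.17 (SE 0.39).

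Gbp2, which coats the vacuoles of protozoan parasites, went the other way in the same mice. Its level in DUSP6 KO replicates 26, 21, 73, 01 and 03 was 17.8, 22.0, 13.2, 9.67 and 14.9 FPKM. WT replicates 65, 67, 73, 77 and 83 had 23.0, 25.5, 23.1, 18.8 and 19.4 FPKM of Gbp2. Again 4 DUSP6 KO spleens lay beyond the WT range, here below it, and replicate 21 lay within. Group means were 15.5 ± 4.68 and 22.0 ± 2.79 FPKM (SD, n = 5 each), a log2 difference of -0.54 (SE 0.19). The 4 spleens with high Gbp2b were the 4 with low Gbp2. Without KO replicate 21 the Gbp2 difference was -0.68 (SE 0.17). Leaving out WT replicate 67, the library with pancreas transcripts, gave 3.39 (SE 0.89) for Gbp2b and -0.49 (SE 0.21) for Gbp2.

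**Figure D1:**
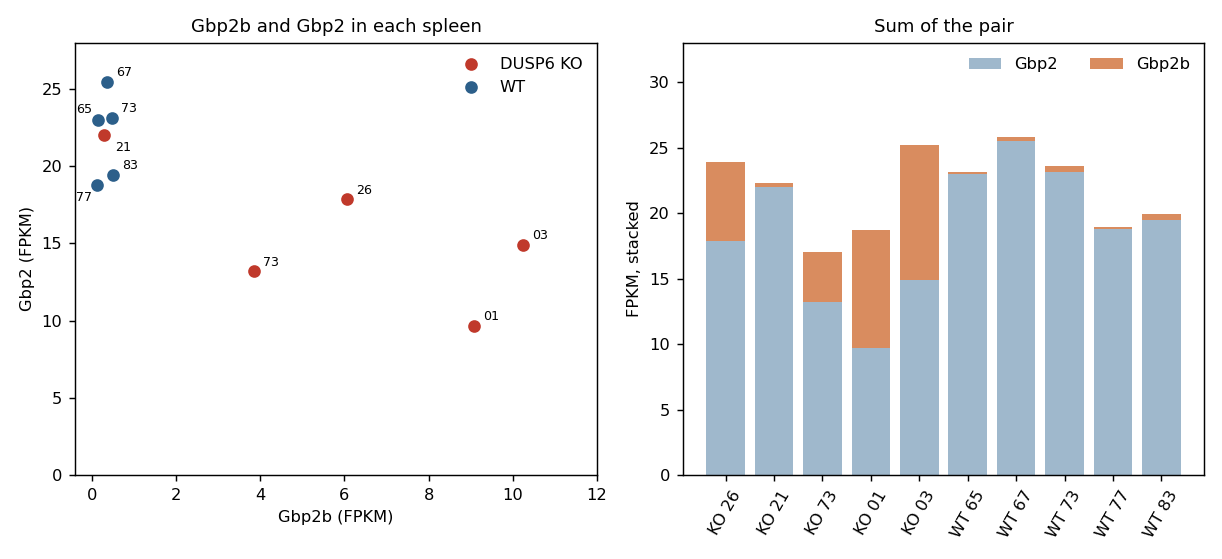
Level of Gbp2b and Gbp2 in each spleen in FPKM, on the left as 1 point per mouse (red, DUSP6 KO; blue, WT; numbers, replicates) and on the right as stacked bars of the pair. Replicate 21 of DUSP6 KO sits among the WT points, and the stacked sums of 17.1 to 25.2 FPKM in DUSP6 KO overlap those of 18.9 to 25.8 FPKM in WT.

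Taken as a pair, the neighbours had overlapping sums in both groups. The sum of Gbp2b and Gbp2 was 23.9, 22.3, 17.1, 18.7 and 25.2 FPKM in KO replicates 26, 21, 73, 01 and 03. In WT replicates 65, 67, 73, 77 and 83 it was 23.2, 25.8, 23.6, 18.9 and 19.9 FPKM. With the reads of both genes counted together, the log2 difference between the groups was -0.02 (SE 0.13). Both genes stood out in the contrast on which the family was chosen, so the joint difference is a description. No constant total is read from it. The make-up of the pair is given for each group. Gbp2b gave 25.3, 1.31, 22.5, 48.4 and 40.7% of the pair in the DUSP6 KO replicates in the order above, against 0.626 to 2.48% in WT. In DUSP6 KO replicate 01, where Gbp2 was lowest of all 10 spleens, the pair stood near equal at 9.07 and 9.67 FPKM. The 51 shared windows are 1.84% of the Gbp2b transcript, and whether reads moved between the genes in counting was not tested.

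The other chromosome 3 members had smaller differences between the groups. Gbp3 had 15.0, 17.8, 13.3, 12.3 and 15.0 FPKM in KO replicates 26, 21, 73, 01 and 03 and 17.4, 18.2, 16.4, 13.2 and 17.6 FPKM in WT replicates 65, 67, 73, 77 and 83. The groups overlapped, with 1 DUSP6 KO spleen below every WT spleen and a log2 difference of -0.18 (SE 0.12). Gbp5, which promotes assembly of the NLRP3 inflammasome, had 5.35, 5.51, 4.22, 4.35 and 5.54 FPKM in DUSP6 KO and 5.54, 6.41, 6.12, 5.02 and 5.60 FPKM in WT, in the same orders. DUSP6 KO replicates 73 and 01 lay below every WT value, and the log2 difference was -0.20 (SE 0.11). Gbp7, reported to help assemble the phagocyte oxidase on bacterial vacuoles, was the one member of this cluster besides Gbp2b with a positive difference. Its values were 8.03, 8.28, 10.9, 10.6 and 8.70 FPKM in DUSP6 KO and 8.06, 7.93, 9.11, 8.90 and 8.29 FPKM in WT. Replicates 73 and 01 were above all WT spleens here, and the log2 difference was 0.13 (SE 0.10).

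On chromosome 5 each member overlapped fully or nearly so between the groups. Gbp9 ranged from 11.5 to 19.0 FPKM in DUSP6 KO (mean 14.9 ± 2.94) and from 12.3 to 19.2 FPKM in WT (mean 15.2 ± 2.64), a log2 difference of -0.04 (SE 0.15). Gbp8 had the smallest residual SD of the 9, 0.13 on the log2 scale, at 8.70 to 10.5 FPKM in DUSP6 KO and 8.93 to 11.0 FPKM in WT, with a log2 difference of 0.01 (SE 0.09). Gbp4 lay between 4.04 and 7.82 FPKM in the KO spleens and between 4.97 and 8.40 FPKM in WT, a log2 difference of -0.12 (SE 0.19). These 3 share an overlapping stretch of the chromosome, as described above. Gbp6 was low throughout, at 0.413 to 0.954 FPKM in DUSP6 KO and 0.475 to 0.968 FPKM in WT from 36 to 110 reads, with a log2 difference of 0.02 (SE 0.25). In each of the 4 genes 1 DUSP6 KO spleen was below the WT range and none was above it.

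**Figure D2:**
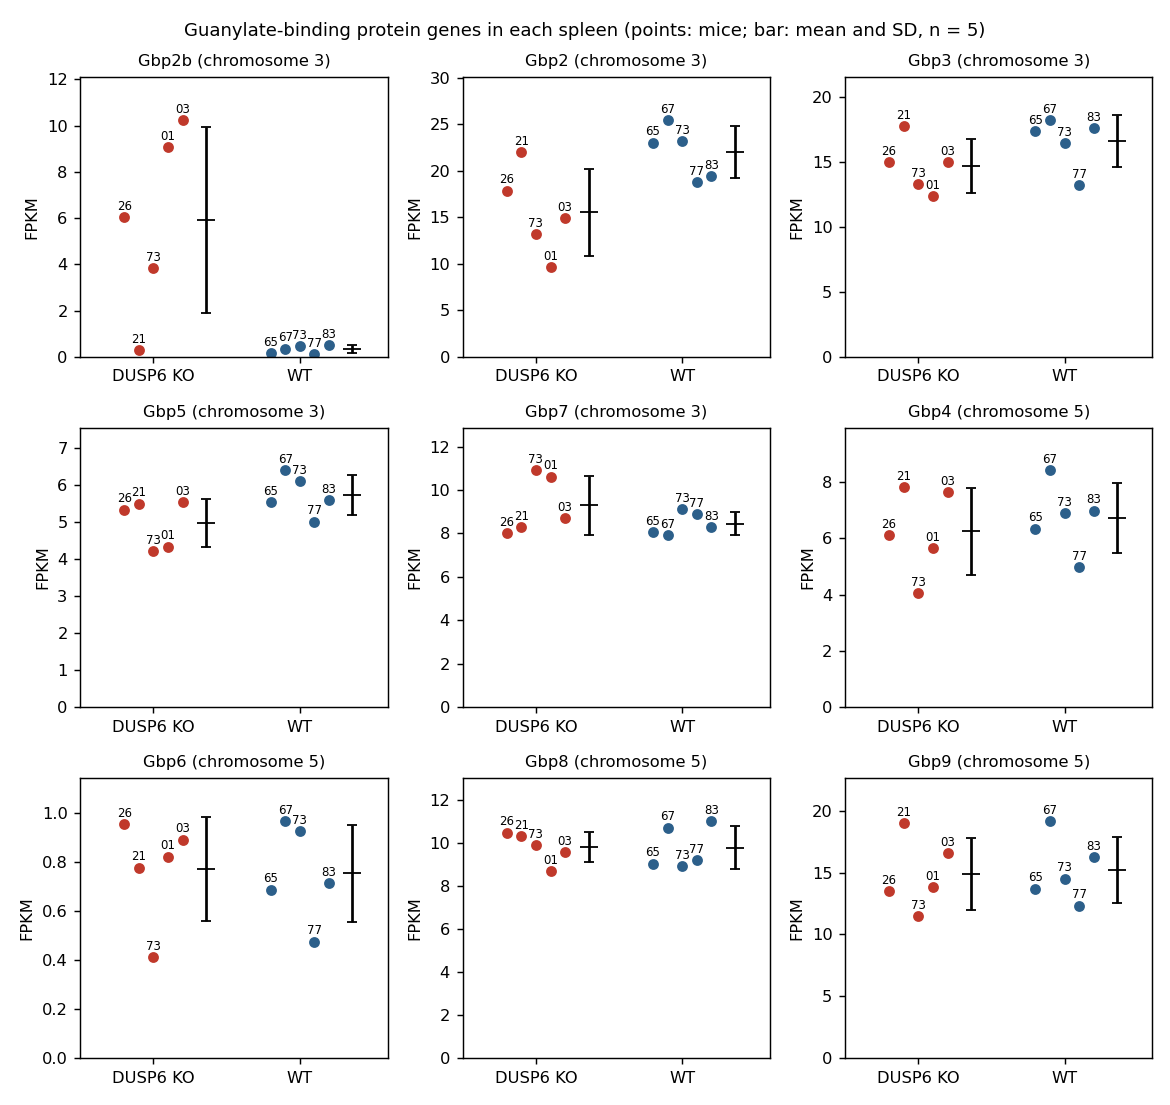
Level of each guanylate-binding protein gene in FPKM on linear axes from 0, with 1 point per mouse labelled by replicate, DUSP6 KO in red and WT in blue, and the group mean and SD (n = 5) as a black bar. Gbp2b shows 4 DUSP6 KO points between 3.84 and 10.2 FPKM and replicate 21 at 0.292 FPKM, while the points of Gbp8 and Gbp9 lie over each other in both groups.

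Gbp10 and Gbp11 on chromosome 5, genes of the family outside the 9, were low. Gbp10 lay at 0.149 to 0.423 FPKM and Gbp11 at 0 to 0.291 FPKM over the 10 spleens, with log2 differences of -0.05 and -0.01. The pseudogene Gbp2-ps, next to Gbp2 on chromosome 3, had no read in any library, and a count of 0 allows up to 3 reads per library.

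All 9 members passed the filter of a mean of at least 0.1 FPKM, which 21296 genes passed. In the fit across all these genes (limma, Benjamini-Hochberg adjusted p of 0.05 or less), 0 of 9 members were called with all 10 libraries. The share called among all genes was 0.0704%, made up of 0.0376% higher and 0.0329% lower in DUSP6 KO. The members counted 2 of 9, Gbp2b and Gbp2, at an unadjusted p under 0.05, beside 5.66% of all genes. By limma voom on the reads the counts were also 0 and 2. With DUSP6 KO replicate 21 left out, limma called Gbp2b, beside 21 genes higher and 13 lower over all genes. The paper's own test, on read counts of 5 spleens per group, lists Gbp2b as increased in DUSP6 KO. Groups without overlap occurred in 0 of 9 members and in 1.11% of all genes. These counts come from the contrast on which the family was chosen, and nothing is read from them. The log2 differences of the 9 had a median of -0.04, with 4 positive and 5 negative, beside a median of -0.00464 over all genes.

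**Figure D3:**
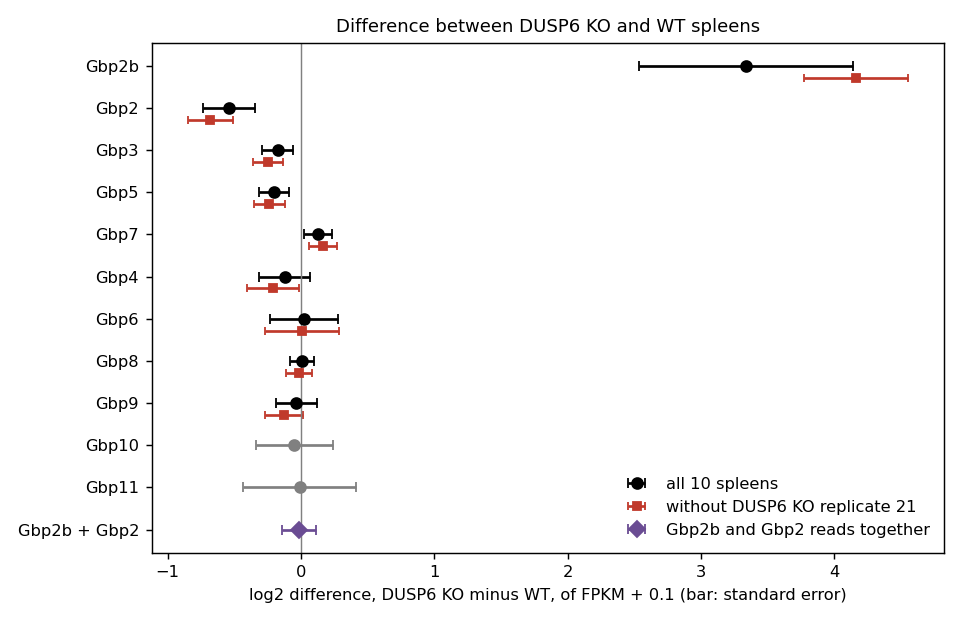
Log2 difference of FPKM + 0.1 between DUSP6 KO and WT with its standard error, for the 9 members with all 10 spleens (black) and without DUSP6 KO replicate 21 (red squares), for Gbp10 and Gbp11 (grey) and for the reads of Gbp2b and Gbp2 together (purple). Gbp2b stands at 3.34, or 4.17 without replicate 21, the joint value at -0.02, and the other members lie between -0.54 and 0.13 with all spleens.

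In FPKM, the order of levels within the family was led by Gbp2 in both groups. FPKM divides by the gene length of the expression table, 6637 bases for Gbp5, 7494 for Gbp4 and 5954 for Gbp6. The transcripts compared above have 3055, 4538 and 2604 bases for these genes, but for Gbp2 both lengths are 2516. Counts of Gbp4, Gbp6, Gbp8 and Gbp9 are also uncertain, so the ranks hold for these FPKM values only. In WT the order of means ran Gbp2, Gbp3, Gbp9, Gbp8, Gbp7, Gbp4, Gbp5, Gbp6 and Gbp2b. Neighbours in that order whose ranges over mice did not overlap were Gbp2 over Gbp3, Gbp9 over Gbp8 and Gbp5 over Gbp6. The lowest pair, Gbp6 and Gbp2b, overlapped in range, but Gbp6 was the higher in 5 of 5 WT mice. In DUSP6 KO Gbp2, Gbp9 and Gbp3 were within 1 SD of one another at 15.5, 14.9 and 14.7 FPKM, and Gbp2b ranked seventh, between Gbp4 and Gbp5. Its DUSP6 KO range of 0.292 to 10.2 FPKM spanned the ranges of both. All 9 together summed to 82.1 ± 8.81 FPKM in the KO spleens and 85.5 ± 8.78 FPKM in WT (SD, n = 5 each). Gbp2b was 7.32 ± 4.82% of that sum in DUSP6 KO and 0.365 ± 0.193% in WT.

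Most members other than Gbp2b varied between mice of one group in a shared pattern. WT replicate 67 had the highest value of all 10 spleens for Gbp2, Gbp3, Gbp4, Gbp5, Gbp6 and Gbp9, and the lowest for Gbp7. DUSP6 KO replicate 73 had the lowest value for Gbp4, Gbp5, Gbp6 and Gbp9 and the highest for Gbp7. With the group means removed, log2(FPKM + 0.1) correlated between Gbp4 and Gbp9 with a Pearson r of 0.94 and between Gbp4 and Gbp5 with 0.90 over the 10 spleens. Gbp4 and Gbp9 overlap on the same strand, and the effect of this on their r was not tested. The 15 pairs among Gbp2, Gbp3, Gbp4, Gbp5, Gbp6 and Gbp9, a set picked after these values were seen, had r between 0.36 and 0.94 with a median of 0.79. Gbp7 ran against them, with r of -0.77 to Gbp2, -0.79 to Gbp5 and -0.71 to Gbp4. All values of a spleen share 1 library and its total, so these correlations are a description of the 10 libraries.

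Cell type markers moved with this pattern. The summed level of 3 erythroid markers was highest in DUSP6 KO replicate 73, at 1790 FPKM, and was 295 FPKM in WT replicate 67, within a range of 274 to 1790 FPKM over all spleens. With group means removed, r between the erythroid sum and Gbp9 was -0.98, and it was -0.93 for Gbp4, -0.80 for Gbp3 and 0.68 for Gbp7. For the 4 B cell markers r was 0.94 with Gbp4, 0.88 with Gbp6, 0.87 with Gbp5 and -0.74 with Gbp7. B cell sums were 560 FPKM in DUSP6 KO replicate 73 and 1424 FPKM in WT replicate 67. The pattern was not particular to B cells, since r with Gbp4 was also 0.90 for T cell, 0.85 for endothelium and 0.80 for dendritic cell markers. It was 0.66 for NK and cytotoxic cell markers, -0.67 for neutrophil markers and -0.21 to 0.42 for the remaining lists. Gbp2 went most closely with the dendritic cell markers, at r = 0.78. In whole spleen, fewer cells of a type and less RNA per cell cannot be told apart, and the part of cell make-up in the levels of the members was not tested.

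**Figure D4:**
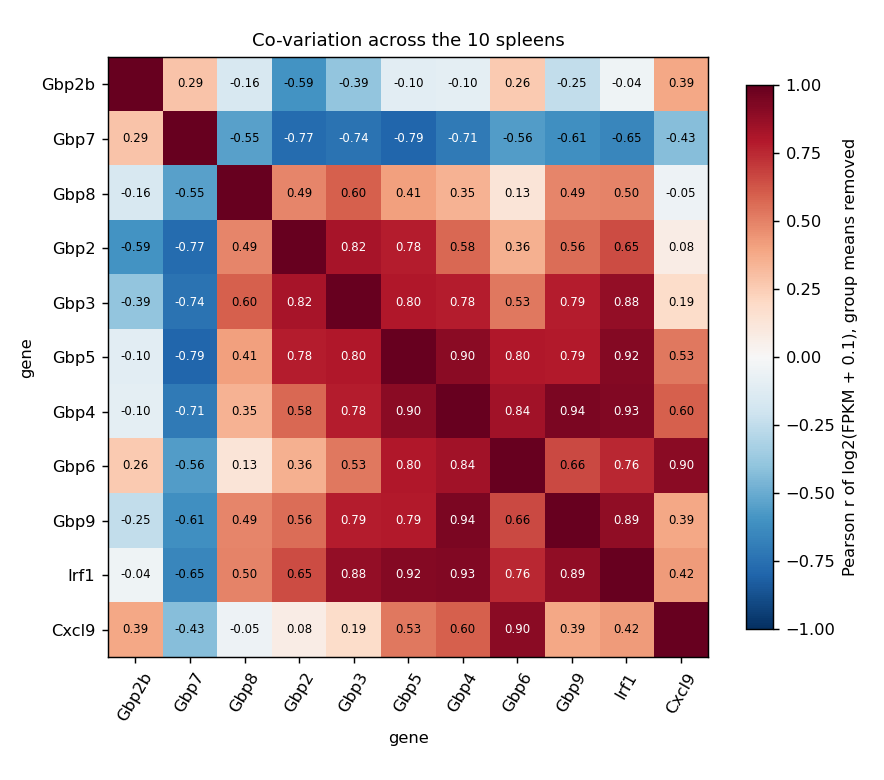
Pearson r between pairs of genes over the 10 spleens, on log2(FPKM + 0.1) with the mean of each group removed, for the 9 members and for Irf1 and Cxcl9, with red for positive and blue for negative r. The block from Gbp2 to Gbp9 is positive throughout (0.36 to 0.94), Gbp7 is negative with every other member except Gbp2b, and Gbp2b is at -0.59 with Gbp2 and between -0.39 and 0.29 with the other members. Within the groups, which the figure does not show, r of Gbp2b with Gbp2 was -0.71 in DUSP6 KO and 0.22 in WT.

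Irf1, a transcription factor that switches on guanylate-binding protein genes, had r of 0.65 with Gbp2 after group means were removed. Among the genes tested, Irf1 ranked only 1330 by r with Gbp2. Over the members, r with Irf1 ran from -0.65 for Gbp7 to 0.93 for Gbp4. Its r with Gbp2b was -0.04, but the groups differed in sign, with -0.37 within the 5 DUSP6 KO spleens and 0.80 within the 5 WT spleens. In WT Gbp2b rested on 6 to 25 reads. For all genes tested, the median r with Gbp2 after the same removal of group means was 0.07. The 5 genes most like Gbp2 by this measure were Msrb1 (0.96), Tmem184b (0.95), Scpep1os (0.94), Adprh (0.94) and Bcdin3d (0.94).

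The genes whose level was most like that of Gbp2b over the 10 spleens, group difference included, lay on other chromosomes. They were the pseudogene Rpl34-ps1 on chromosome 6 (r = 0.98), Gm3608 on chromosome 1 (0.97), 4930597A21Rik on chromosome 11 (0.97), Ect2l on chromosome 10 (0.95) and Hist1h2al on chromosome 13 (0.94). Rpl34-ps1 had 1010, 137, 880, 1479 and 1745 FPKM in KO replicates 26, 21, 73, 01 and 03, and 133 to 171 FPKM in WT. Gm3608 had 26.7, 8.35, 25.5, 27.8 and 47.6 FPKM in the same DUSP6 KO spleens and 4.97 to 8.44 FPKM in WT. Hist1h2al was read in 4 DUSP6 KO spleens at 2.18 to 9.17 FPKM and listed at 0 in replicate 21 and in all WT spleens. In each of the 5 genes the same 4 KO spleens exceeded all WT values and replicate 21 did not, a likeness to Gbp2b that the choice by r asks for. Rpl34-ps1 and Hist1h2al are processed pseudogenes, whose reads may be shared with near-identical copies.

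No near neighbour of the cluster on chromosome 3 was called. Within 1 Mb of the cluster 9 other genes were tested, and limma called 0 of them, with 0 at an unadjusted p under 0.05 and 0 without overlap between the groups. Their log2 differences had a median of -0.01. The 3 with the lowest p, Gm24457, Gm25965 and 4930519L02Rik, are non-coding and had at most 11 reads in any library. Next to the chromosome 5 cluster 23 genes were tested, and 0 were called, with 2 at an unadjusted p under 0.05, C230066G23Rik (log2 difference 1.45, SE 0.49) and Rps15a-ps5 (-0.82, SE 0.35). Both rested on few reads per library, 0 to 10 for C230066G23Rik and 3 to 18 for Rps15a-ps5.

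Farther along chromosome 3 lie Ifi44 and Ifi44l, a pair of genes that type I interferon induces. Ifi44l had 9.81, 8.71, 6.05, 7.75 and 12.7 FPKM in KO replicates 26, 21, 73, 01 and 03 and no read in WT except 1 read in replicate 83. Ifi44 had 2.76, 3.17, 2.56, 3.14 and 3.60 FPKM in DUSP6 KO and 0.282 to 0.662 FPKM in WT. Both were above every WT spleen in all 5 DUSP6 KO spleens, replicate 21 included, which was not so for Gbp2b. Limma gave Ifi44 a log2 difference of 2.36 (SE 0.21, adjusted p = 0.00077) and Ifi44l one of 6.37 (SE 0.22, adjusted p = 1.845e-07). The size for Ifi44l depends on the pseudocount, since WT held 1 read in all. Between Gbp2b and Ifi44, 43 genes were tested and 0 were called, with 3 at an unadjusted p under 0.05.

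**Figure D5:**
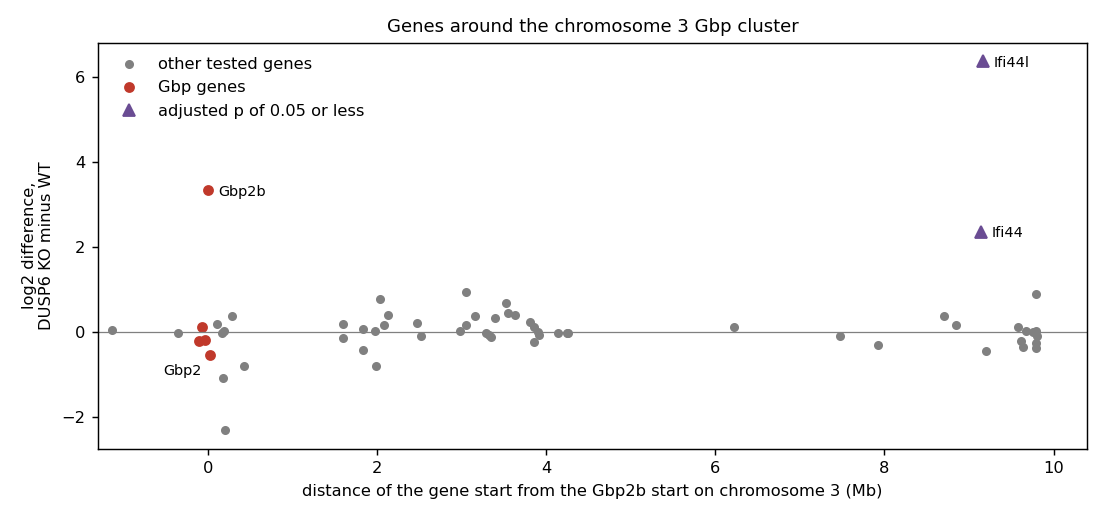
Log2 difference between DUSP6 KO and WT (vertical axis) of tested genes by the distance of their start from the start of Gbp2b on chromosome 3 in Mb (horizontal axis), with guanylate-binding protein genes in red and purple triangles for an adjusted p up to 0.05. Gbp2b at 3.34 stands above its neighbours, and Ifi44 (2.36) and Ifi44l (6.37) are the called genes in the stretch.

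The interferon genes around the family were looked at through 5 lists. Interferon gamma signalling had 10 of 10 genes tested, with 0 called and 0 at an unadjusted p under 0.05 by limma and by voom, and a median log2 difference of -0.11. Ifng itself, the cytokine that induces the family, had 0.290, 1.23, 0.369, 0.107 and 0.140 FPKM in KO replicates 26, 21, 73, 01 and 03 and 0.316, 0.566, 1.03, 0.836 and 0.388 FPKM in WT replicates 65, 67, 73, 77 and 83. It rested on 3 to 31 reads, was lowest in 3 DUSP6 KO spleens and highest in replicate 21, and the groups overlapped (two-sided exact permutation test, p = 0.4048). Irf1 had 27.0 ± 4.97 FPKM in the KO spleens and 28.9 ± 5.51 FPKM in WT (SD, n = 5 each). Ifngr2, a chain of the interferon gamma receptor, stood at 17.5 ± 3.03 and 19.3 ± 1.51 FPKM.

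Interferon gamma targets outside the family had 16 of 18 genes tested, with 0 called and 0 at an unadjusted p under 0.05 by either tool, and a median of -0.13. The lowest p belonged to Psmb9, a subunit of the immunoproteasome, at 25.1 ± 3.89 FPKM in the KO spleens and 30.2 ± 4.84 FPKM in WT, followed by Ubd and Serpina3g. The immunity-related GTPases, which act on pathogen vacuoles together with guanylate-binding proteins, had 13 of 13 tested and 0 called, with a median of -0.11. In that list 1 gene was at an unadjusted p under 0.05 by both tools, Gm12250, with 8.82 ± 2.29 FPKM in the KO spleens and 12.5 ± 2.14 FPKM in WT (log2 difference -0.52, SE 0.19, limma adjusted p = 0.7625). Tgtp2 and Tgtp1 came next, with log2 differences of -0.27 and -0.44.

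Interferon alpha and beta targets had 27 of 27 tested and 2 called, Ifi44l and Ifi44, both higher in DUSP6 KO, by limma and by voom. The median of the list was -0.07, and Xaf1, next by p, had 7.76 ± 3.66 FPKM in the KO spleens and 4.24 ± 0.625 FPKM in WT. Partners of guanylate-binding proteins in cells, such as caspases and autophagy conjugation proteins, had 14 of 14 tested, 0 called and 0 at an unadjusted p under 0.05 by either tool, with a median of 0.01. Il18 came first there, at 29.3 ± 5.85 FPKM in the KO spleens and 24.9 ± 3.0 FPKM in WT, with Atg3 and Casp1 behind it. Over the 5 lists 80 genes were tested, of which 56 had a negative and 24 a positive difference. Of all 21296 genes tested, 10851 were lower and 10445 higher in DUSP6 KO. The median was -0.10 over the lists beside -0.00464 for all genes. List genes are read in the same 10 libraries, so they are not separate observations.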

How the data were processed

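RNA of 10 spleens was sequenced as poly-A selected, paired-end libraries. Per the paper and the submitters' processing notes, the authors aligned reads with Hisat2, counted them with featureCounts 1.5.0-p3 and computed FPKM from counts and gene lengths. The strand setting is not given in the sources used here. The notes name a human build, hg38, but gene identifiers were of mouse, and 98.3% of genes, with 9 of 9 members, had the coordinates of GENCODE release 21 on GRCm38.

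The deposited FPKM values were the only measurements used. FPKM times gene length was a whole multiple of 1 step per library (100% of values within 0.01 of a read), which gave the reads. Intervals of counting were not needed, since groups were compared over mice.

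Limma 3.58.1 in R 4.3.3 (trend) was run on log2(FPKM + 0.1) of the 21296 genes averaging 0.1 FPKM or more, and p-values were adjusted after Benjamini and Hochberg. The pseudocount understates differences of low genes. Sequences came from RefSeq and GENCODE tables and were compared with biopython 1.88. Figures used matplotlib 3.10.9. Alternatives were pseudocounts of 1 and 0.01, a minimum of 1 FPKM, no filter, median centring, quantile normalization, voom, group medians, joint reads of Gbp2b and Gbp2, and each library left out.

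Members, lists and alternatives were chosen with earlier results of these data known. Genes named are the members, Gbp10, Gbp11, Dusp6, Ifng, Irf1, Ifi44 and Ifi44l, called list genes, the 3 of lowest p per list or neighbourhood, and the 5 most like Gbp2b and Gbp2. Other names were added after values were seen. Among markers these 3 are counted, not all named. A further gene of that rule is not reported here.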

Additional observations from a re-analysis of the deposited data

Results flagged for a closer look

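In 40 groups of 5 libraries, over 20 measures, 3 had a sample whose gap to the rest exceeded the 95% limit of Dixon's test, and chance alone flags about 1 group in 20. Ifng was 1.2312 FPKM in DUSP6 KO replicate 21, against 0.369 FPKM in the next highest DUSP6 KO spleen. Ifi44l was 0.040551 FPKM in WT replicate 83, which is 1 read, where the other WT spleens had none. The total of 18422147 reads in WT replicate 67 lay above the next highest WT total of 16348136. Gbp2b in DUSP6 KO replicate 21 was not among the flagged values, because the other 4 spleens were themselves far apart.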

How the results depend on the processing

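The log2 difference of Gbp2b stayed positive at 2.07 to 4.10 over the other settings and at 2.98 to 4.17 with each library left out in turn, except with the reads of Gbp2b and Gbp2 counted as one, where the pair had -0.017, by construction the value for both genes. Gbp2 stayed negative at -0.68 to -0.39 with a library left out. Of the 9 members only Gbp2b was called in any alternative, the one without DUSP6 KO replicate 21. Gbp4, Gbp6, Gbp8 and Gbp9, none of them called, changed sign in 1, 4, 5 and 2 alternatives, and Gbp6 was not tested at a minimum of 1 FPKM. The interferon lists kept a count of 2 called genes in all 17 alternatives. Over all genes, 8 were called higher and 7 lower. With each library left out the counts ran from 6 to 21 higher and from 4 to 13 lower, with 21 and 13 without DUSP6 KO replicate 21 and 4 lower without WT replicate 83. At a minimum mean of 1 FPKM, 4 were lower; the filter leaves fewer genes tested. No paired analysis was possible because DUSP6 KO and WT share a single animal number, 73. Depth limits Gbp2b in WT, Gbp6 and Ifng, which rest on few reads, and 5 mice per group limit every difference.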
